A study of Mus musculus with 2 samples.

Results

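The genes described here are 35 genes of ribosome biogenesis and cell growth, of the 31053 genes in the feature tables. They were chosen as a list of symbols, and all 35 were found. A cell makes ribosomes in the nucleolus: RNA polymerase I transcribes the ribosomal RNA precursor, small nucleolar ribonucleoproteins (snoRNPs) modify it at chosen bases, and assembly factors fold it, cut it and join it to ribosomal proteins. Polyamines, nucleotides and translation factors are made alongside, and the transcription factor Myc is known to bind and raise many of these genes in activated lymphocytes. In B cells the program is known to rise after antigen or T cell help and to run high in growing and dividing cells.

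Single-cell RNA sequencing was done on flow-sorted B cells from the lamina propria of the colon (the connective tissue under the epithelium) in C57BL/6J mice, all female. The day 14 library came from mice given 2% DSS (dextran sulfate sodium, which injures the colon epithelium) in drinking water for 7 days and then left to recover for 7 days. The day 0 library came from untreated control mice. Each group is 1 library made with the 10x Chromium 3′ kit version 2, and the sources used here do not say how many mice went into each. The treatment tag names DSS for both samples, so the untreated state of day 0 rests on the protocols and the design text. With 1 library per group no difference between days can be tested, and day and library cannot be told apart.

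After the authors' cell filter the day 14 library held 4692 cells with 12317052 UMIs, and the day 0 library 3290 cells with 8690102 UMIs. A UMI (unique molecular identifier) marks 1 captured RNA molecule. The median cell had 2242 UMIs at day 14 and 2278 at day 0. Levels below are in CPM: the UMIs of a gene per 1000000 UMIs of the library or class, with immunoglobulin genes and genes of the mitochondrial genome left out of that total. The intervals are exact 95% intervals that cover counting error only. In all, 17 barcodes occurred in both libraries. At least 2 of 10 mature B cell markers were seen in 99.7% of day 14 cells and 99.9% of day 0 cells. In the same order T cell markers summed to 4.31 and 6.80 CPM, with Cd3e at 0 UMIs at day 14. Myeloid markers summed to 217 CPM at day 14 and 192 at day 0, with at least 2 of them in 0.384% and 0.334% of cells. Epithelial markers summed to 11.5 and 13.4 CPM in that order, and stromal or endothelial markers to 50.45 and 60.06. A gene was called higher or lower at 1.5-fold, a rule of size and not a test. Counts come from the 3′ end and are not set per length, so the order of different genes is one of UMI yield. Npm1, Mif, Eif5a and Nme1 have close copies in the genome, and the sources used here do not say how the counting shared their reads.

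Myc binds the E-box CACGTG, and the promoters of 4 genes are shown to give windows with several copies, with 1 copy and with none. Apex1 has 3 copies of the motif around its start site, and Anp32b and Bzw2 have 1 each. Odc1, the gene that most often stood apart, has none in the window searched. Each stretch covers 120 bases before and 30 bases after the start site, on build GRCm38.p6 from RefSeq, 5′ to 3′ on the strand of the gene, with the motif in capitals.
Apex1 (chr14:50924829-50924978, plus strand): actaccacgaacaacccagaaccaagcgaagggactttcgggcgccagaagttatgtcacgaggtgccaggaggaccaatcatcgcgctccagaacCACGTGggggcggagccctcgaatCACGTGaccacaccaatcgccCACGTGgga
Bzw2 (chr12:36156796-36156945, minus strand): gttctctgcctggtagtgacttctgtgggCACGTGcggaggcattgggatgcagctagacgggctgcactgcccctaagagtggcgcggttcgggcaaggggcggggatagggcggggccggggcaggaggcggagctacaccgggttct
Anp32b (chr4:46450806-46450955, plus strand): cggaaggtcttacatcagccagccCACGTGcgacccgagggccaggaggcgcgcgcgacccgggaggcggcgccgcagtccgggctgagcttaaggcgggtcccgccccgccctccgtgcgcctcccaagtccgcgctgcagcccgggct
Odc1 (chr12:17544753-17544902, plus strand): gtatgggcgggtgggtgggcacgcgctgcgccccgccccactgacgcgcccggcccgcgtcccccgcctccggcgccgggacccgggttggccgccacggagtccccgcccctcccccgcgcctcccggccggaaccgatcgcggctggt
Of the 35 genes, 30 had a promoter window of 250 bases before to 50 bases after the start site, and 9 of these 30 held CACGTG, which is 30%. Among 7076 genes with at least 50 UMIs and a window the share was 13%, and among 107 other ribosome biogenesis genes it was 21.5%. The motif reads the same on both strands, so each copy was counted once. The 9 genes were Mettl1, Apex1, Prmt1, Eif5a, Phb, Anp32b, Nme1, Bzw2 and Wdr43. Eif5a and Nme1 have several listed start sites, and a gene was counted when any of its windows held the motif. All windows of the 30 genes, with or without the motif, had a GC content of 60.9%, and those of genes with at least 50 UMIs had 60.8%. A match describes letters in a window and shows no binding. Bases more than 50 past the start site, introns among them, were not searched. A gene without a match here, Odc1 included, can still hold the motif there.

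The 35 genes were held at nearly the same level on both days. Their summed level was 5730 CPM at day 14 against 5539 at day 0, for a ratio of 1.03 (95% interval 1.02 to 1.05). None of the 35 passed 1.5-fold in either direction, while of 8924 genes, all with 50 UMIs or more, 1.31% were higher and 4.94% lower. By ratio, 23 of the 35 were above 1 and 12 below, with a median log2 ratio of 0.06 against -0.09 for all genes tested. With size factors from the median of gene ratios the sum had a ratio of 1.10, and 30 of the 35 were above 1.

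Among the snoRNP genes, the summed level of 9 was 1358 CPM at day 14 and 1332 at day 0. Fbl, the methyltransferase of the box C/D particles, had 171 CPM at day 14 and 164 at day 0. Its partners Nop56 and Nop58 form the core of the same particles. Nop56 had 184 CPM at day 14 and 193 at day 0, and Nop58 had 138 at day 14 and 128 at day 0. The box H/ACA particles, which convert uridine to pseudouridine, are built from Dkc1, the pseudouridine synthase, with Nhp2, Gar1 and Nop10. Nop10 had the highest UMI yield of the group, 493 CPM at day 14 and 499 at day 0. Nhp2 had the highest ratio of the group, 1.14, with 135 CPM at day 14 and 118 at day 0. Gar1, Dkc1, Nolc1, a chaperone of snoRNPs, and Rrp9, a protein of the particle that guides early cleavage, lay between 32.1 and 86.5 CPM at day 14 and between 29.7 and 83.2 at day 0.

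The other nucleolar genes ran from the most to nearly the least yielding of the list. Npm1, nucleophosmin, a chaperone of ribosome assembly, had 1020 CPM at day 14 and 923 at day 0, and it was seen in 80.5% of day 14 cells. Ncl, nucleolin, which binds the ribosomal RNA precursor, had 758 CPM at day 14 and 760 at day 0. Pa2g4, a growth-regulated protein that binds ribosomes, had 83.2 CPM at day 14 and 70.4 at day 0. Polr1b, a large catalytic subunit of RNA polymerase I, gave 54 UMIs at day 14 and 38 at day 0, which is too few for the comparisons between cells below. Wdr43, Ppan, Nop16 and Bop1, which act in or on the assembling ribosome, had ratios within 1.5-fold, as did Ifrd2. The whole group ran between 0.894 and 1.18.

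The genes of polyamine and nucleotide synthesis held both ends of the day comparison. Odc1, ornithine decarboxylase, the rate-limiting enzyme of polyamine synthesis, had the lowest ratio of the 35: 139 CPM at day 14 against 208 at day 0. Its ratio was 0.668 (0.624 to 0.716), just inside the 1.5-fold limit. Srm, spermidine synthase, which acts after Odc1, had the highest: 51.2 CPM at day 14 against 38.8 at day 0, with a ratio of 1.32 (1.15 to 1.52). So 2 enzymes of the same pathway lay on opposite sides of 1. Dctpp1, which removes surplus and damaged dCTP, had a ratio of 1.28, with 28.1 CPM at day 14 and 22.0 at day 0. Nme1, a nucleoside diphosphate kinase, had 292 CPM at day 14 and 257 at day 0. Cad, the enzyme that starts pyrimidine synthesis, gave 38 UMIs at day 14 and 28 at day 0, the lowest yield of the list.

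The level of Odc1 was lower at day 14 in 11 of the 12 clusters described below. Some differed by little, such as cluster 2, with 110.5 CPM at day 14 and 117.8 at day 0. In cluster 5 Odc1 was higher, with 187 CPM at day 14 and 172 at day 0. Cluster 9, where Odc1 was high on both days, held 2.41% of day 14 cells and 5.29% of day 0 cells. The part of that share in the Odc1 difference was not tested. Immediate early genes, which cells switch on within minutes of a signal or of handling, summed to 5057 CPM at day 14 and 6357 at day 0, with a ratio of 0.796. Their part in the Odc1 difference was not tested.

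The remaining groups differed little by day. The methyltransferases Prmt1, which methylates arginines of RNA-binding proteins, Mettl1, which methylates guanosine in transfer RNA, and Nsun2, which methylates cytosine there, summed to 186 CPM at day 14 and 180 at day 0. Eif5a, an elongation factor that carries a residue made from spermidine, had 492 CPM at day 14 and 472 at day 0. Bzw2, a regulator of translation initiation, had 35.7 at day 14 and 33.7 at day 0. Ranbp1, a cofactor of nuclear transport, Anp32b, a histone chaperone, and Apex1, the endonuclease of base excision repair, had ratios of 1.11, 0.935 and 1.14 in that order. The mitochondrial genes C1qbp, Phb and Atad3a summed to 185 CPM at day 14 and 180 at day 0, and Mif, a cytokine, had 405 at day 14 and 384 at day 0.

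**Figure D1:**
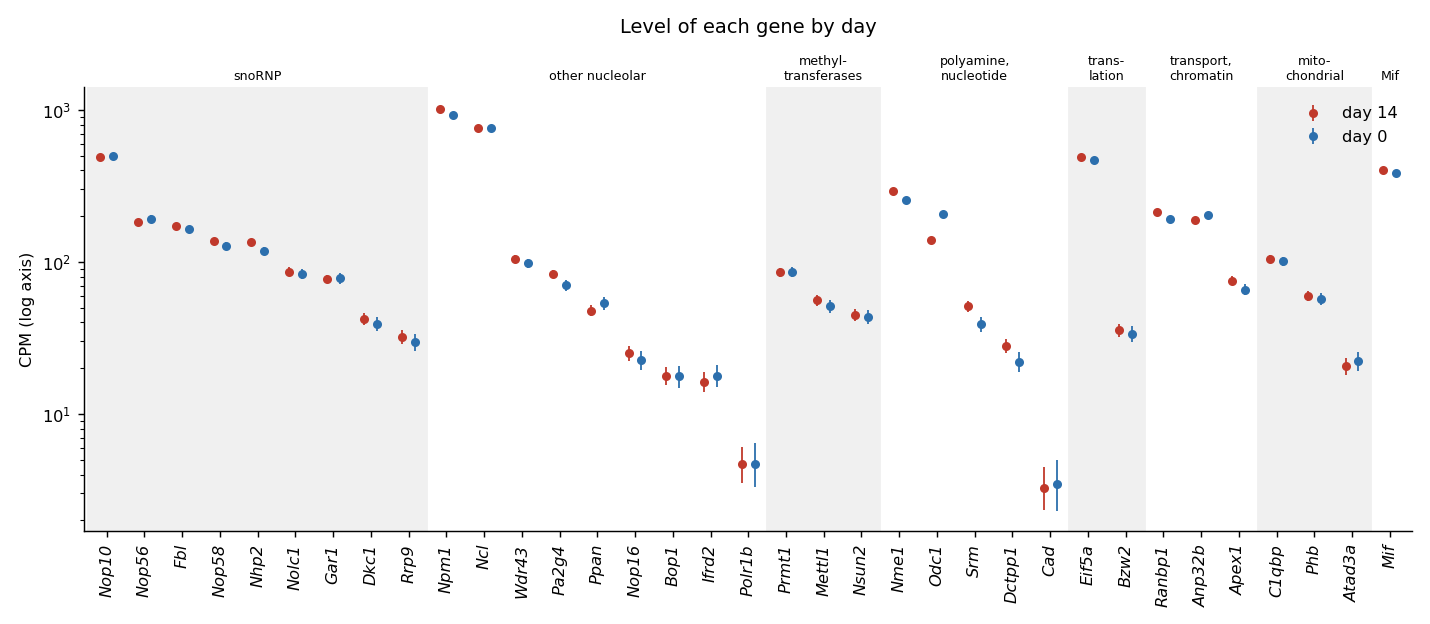
Level of each of the 35 genes in CPM (log axis) at day 14 (red, left) and day 0 (blue, right), grouped by role, with exact Poisson 95% intervals. The pairs nearly overlap except for Odc1, at 139 at day 14 and 208 at day 0, and Srm, at 51.2 at day 14 and 38.8 at day 0.

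Genes of the same pathways outside the list behaved alike between days. None of 127 other ribosome biogenesis genes and none of 55 growth and metabolism genes passed 1.5-fold. Their sums had ratios of 1.003 and 0.991 in that order. The 4 biogenesis genes with the largest differences were Urb1 (ratio 0.707), Utp20 (0.737), Dhx37 (0.740) and Cd3eap (1.35), and Nop53, the one with most UMIs, had 1.02. Of the growth genes, the amino acid transporter subunits Slc7a5 and Slc3a2 had ratios of 0.698 and 0.766, and Gnl1 had 0.766. Rcc1 went the other way, at 1.32, from 85 UMIs at day 14 and 45 at day 0. Oaz1, the inhibitor of ornithine decarboxylase and the growth gene with most UMIs, had 1.02. Ribosomal protein genes summed to 388857 CPM at day 14 and 354259 at day 0, with a ratio of 1.10, with 0 of 81 tested genes past 1.5-fold.

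To see whether the 35 genes vary together over cells, every cell was thinned to 1000 UMIs, so that depth could not set the sum. This left 4615 cells at day 14 and 3254 at day 0, with 77 and 36 shallower cells left out in that order. The genes were listed with earlier results of these cells known, so what follows describes these cells and is no independent evidence of a shared program. A thinned day 14 cell held a median of 5 UMIs of the list, the 10% lowest cells held at most 2, the 10% highest at least 10, and the highest held 36. At day 0 the median was 5, the 10% lowest held at most 2, the 10% highest at least 9, and the highest cell held 41. The summed list varied 2.48 times its mean at day 14 and 2.42 times at day 0, where counts drawn alike from every cell would give a value near 1. The variance of the sum was 2.17 times the sum of the genes' own variances at day 14 and 2.12 times at day 0, so the genes varied together. That ratio was 1.41 at day 14 and 1.35 at day 0 for the other ribosome biogenesis genes, and 2.42 and 1.92 for the immediate early genes. In the same order it was 7.02 and 6.59 for the ribosomal protein genes, which have far more UMIs.

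Pairs of genes were weakly correlated, as sparse counts allow. Of 595 pairs, 544 had a correlation above 0 at day 14 and 526 at day 0, with means of 0.035 and 0.036 in that order. The highest was 0.143 for Ncl and Nop58 at day 14 and 0.133 for Ranbp1 and Eif5a at day 0. These values are over cells of 1 library each and are given as a description.

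High cells were high for nearly every member. For each gene, cells were ranked by the other 34, and its mean UMI count in the top 10% of cells was set against the remaining cells. At day 14 all 33 genes with enough UMIs were at least 1.5-fold higher in the top cells, where 14.5% of 5984 genes, members included, passed. At day 0, 31 of 33 passed, with a background of 13.6% of 5274 genes. Cad and Polr1b had too few UMIs on both days. At day 0 the exceptions were Odc1, at 1.12-fold (0.861 to 1.44), and Bop1, a factor of the large ribosomal subunit, at 1.42-fold (0.619 to 2.90).

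Srm had the steepest ratio at day 14, 0.180 UMIs in top cells and 0.0328 in other cells, which is 5.49-fold (4.12 to 7.26). At day 0 it had 0.123 in top cells and 0.0236 in other cells, 5.22-fold. Pa2g4 had 4.36-fold at day 14 and 3.71-fold at day 0, Ifrd2 had 3.91 and 5.04, and Dctpp1 had 3.35 and 5.41 in that order. The most yielding genes had lower ratios: Npm1 had 1.84-fold at day 14 and 1.81 at day 0, Ncl had 2.16 and 1.962, and Nop10 had 1.62 and 1.60. Odc1 had the lowest ratio on both days, with 1.51-fold (1.18 to 1.90) at day 14. The snoRNP genes together had 2.02-fold at day 14 and 2.13-fold at day 0, and the genes of polyamine and nucleotide synthesis 2.47 and 1.98 in that order.

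**Figure D2:**
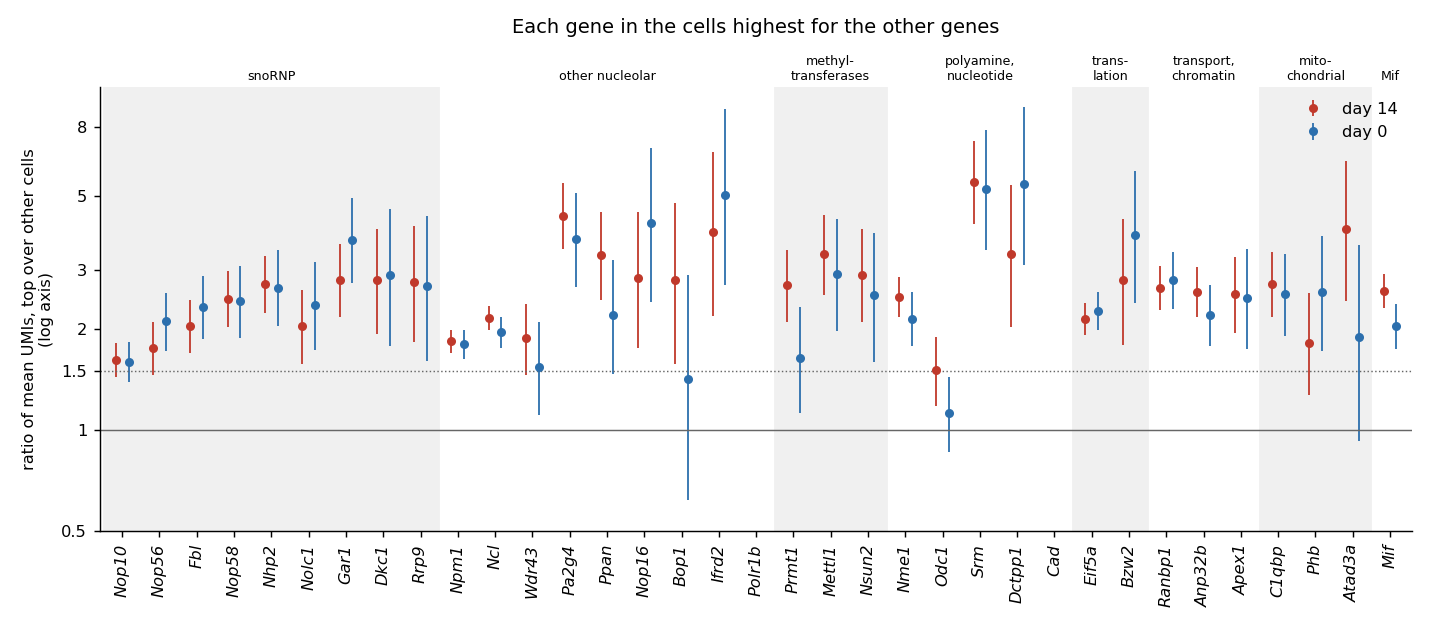
Ratio of the mean UMIs of each gene in the 10% of cells highest for the other genes over the remaining cells (log axis), day 14 (red, left) and day 0 (blue, right), with counting intervals; the dotted line is 1.5. Srm stands near 5.49 at day 14 and 5.22 at day 0, and Odc1 is the lowest on both days; Polr1b and Cad had too few UMIs to be drawn.

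The top cells were also somewhat deeper, with a median of 2386 UMIs against 2128 in other cells at day 14 and 2411 against 2169 at day 0. Cell cycle markers averaged 0.918 UMIs in top cells and 0.809 in other cells at day 14, and 1.18 and 0.967 in that order at day 0. Before thinning, cells with at least 2 of 14 cell cycle genes were 33.7% of day 14 cells and 40.4% of day 0 cells. Without them, 32 of the genes passed 1.5-fold at day 14 and 26 at day 0. With fewer cells, fewer genes may reach 50 thinned UMIs. The number tested and the background were not counted for this setting. The part of depth in the pattern was not tested. Ribosomal protein genes were near their level in other cells: their sum was 0.971-fold in top cells at day 14 and 0.985-fold at day 0. Of the other ribosome biogenesis genes 59 of 115 passed at day 14 and 48 of 101 at day 0, and of the growth genes 31 of 50 and 27 of 48 in that order. Cd3eap, a subunit of RNA polymerase I, had the highest ratio of the biogenesis list at day 14, 5.08-fold. At day 0 Slc7a5, the amino acid transporter, had the highest ratio of the growth list, 4.28-fold.

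The share of cells with many UMIs of the list was also counted. After thinning, 468 of 4615 day 14 cells held at least 10 UMIs, which is 10.1% (exact binomial 95% interval 9.29 to 11.1), and 284 of 3254 day 0 cells did, 8.73% (7.78 to 9.75). At least 20 UMIs were held by 49 day 14 cells and 26 day 0 cells, 1.06% (0.787 to 1.40) and 0.799% (0.523 to 1.17).

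To find genes outside the list whose cells were richest in it, cells were split by whether they held a UMI of a gene, and the genes were ranked by the smaller of the 2 libraries' ratios of the summed list, over 3198 genes. The top 10 were Rrp15, Ppp1r14b, Mybbp1a, Rcl1, Timm10, Timm8a1, Hdgf, Tma16, Ankrd33b and Nob1. Cells with a UMI of Rrp15, a factor of the large ribosomal subunit, had 1.47 times the list level of other cells at day 14 and 1.40 times at day 0. Rrp15, Mybbp1a, Rcl1 and Nob1 belong to the other ribosome biogenesis genes and Timm8a1, an import chaperone of mitochondria, to the growth genes, and the remaining 5 are in neither list. Of the 100 highest genes 20 were among the 68 ranked biogenesis genes and 17 among the 41 ranked growth genes. Myc stood at rank 64 of 3198.

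The relation to Myc was measured in the same thinned cells. A Myc UMI was seen in 147 of 4615 cells at day 14 and in 129 of 3254 at day 0. Cells with a Myc UMI held a mean of 6.41 UMIs of the list and cells without held 5.43 at day 14, a ratio of 1.18 (1.10 to 1.26). At day 0 cells with Myc held 6.30 and cells without 5.22, a ratio of 1.21 (1.12 to 1.30). The list was thus modestly higher where Myc was seen, on both days. Ribosomal protein genes had ratios of 0.947 at day 14 and 0.975 at day 0. Single genes were less clear. At day 14, 5 of 33 passed 1.5-fold, against a background of 15.6%, and at day 0, 4 of 33 passed, against 13.2%; both shares lie near or below the background. Downward, 3 of 33 passed on each day, each from 1 to 6 UMIs in cells with Myc, against backgrounds of 23.8% at day 14 and 21.5% at day 0. Immediate early genes were another matter, with 17 of 17 past 1.5-fold at day 14 and 10 of 16 at day 0.

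Odc1 was the only gene of the list past 1.5-fold with Myc on both days, at 1.68-fold (1.13 to 2.41) at day 14 and 1.71-fold (1.21 to 2.34) at day 0. Pa2g4 had 2.20-fold at day 14 but 0.648-fold at day 0, from 24 and 5 UMIs in cells with Myc, so its direction differed between the libraries. Cells with at least 2 Myc UMIs were few, and the 2 libraries differed in them. At day 14, 31 such cells held 5.26 UMIs of the list, a ratio of 0.968 over cells with none, and at day 0, 12 such cells held 10.0, a ratio of 1.92. Without the plasma-like cells and the cluster led by Rgs13 and cell cycle genes, the ratio for any Myc UMI was 1.21 at day 14 and 1.10 at day 0. The remaining cells were thinned anew for this, so their UMIs were drawn again. The part of the new draw and that of the cells left out were not told apart. Read the other way, Myc reached 59.6 CPM in the richest of 5 equal bins of day 14 cells by the list and 33.6 in the poorest. At day 0 it reached 76.9 in the richest bin and 26.1 in the poorest.

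Cells were clustered without the 35 genes, the other ribosome biogenesis genes and the Myc network genes, which gave 12 clusters. The cluster rich in the list was not the one rich in Myc. Cluster 6 held 474 day 14 cells and 207 day 0 cells, which is 10.1% and 6.29% of the library in that order. The list there had 9522 CPM against 4964 in other cells at day 14, a ratio of 1.92 (1.88 to 1.95). At day 0 it had 10732 against 4920, a ratio of 2.18 (2.13 to 2.24). The 35 genes were left out of the clustering, but the growth and metabolism genes were not. Of the 10 leading genes of cluster 6, 8 were members: Pa2g4, Mif, Dctpp1, C1qbp, Npm1, Phb, Srm and Ifrd2, beside Cfp and Grn. Of 33 genes 26 passed 1.5-fold there at day 14, against a background of 8.24%, and 30 at day 0, against 11.8%. All 33 had ratios above 1 on both days. The list was made with earlier results of these cells known, and the comparison was added after the clusters were seen. These counts thus describe the cluster and are no independent evidence. Cluster 6 cells were deeper, with a median of 3144 UMIs against 2074 at day 14 and 2995 against 2137 at day 0, and with every cell thinned to 1000 UMIs the ratios were 1.92 and 2.14 in that order.

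Within cluster 6 the roles differed in size. At day 14 the snoRNP genes had a ratio of 1.51, the methyltransferases 2.13, the translation factors 2.21, the mitochondrial genes 2.30 and Mif 2.59. Dctpp1 had the highest single ratio at day 14, 3.46-fold (2.70 to 4.41), with 63.7 CPM in cluster 6 and 18.4 in other cells. At day 0 it was Ifrd2, at 4.48-fold (3.06 to 6.48), with 60.1 in cluster 6 and 13.4 in other cells. Odc1 again stood apart, at 1.10-fold (0.954 to 1.26) at day 14 and 1.23-fold (1.05 to 1.44) at day 0. Immediate early genes were lower in cluster 6, where 15 of 17 passed 1.5-fold downward at day 14 and 13 of 17 at day 0. The share of all genes past 1.5-fold downward was not counted for this cluster. Myc itself had 25.5 CPM there at day 14 and 30.04 at day 0. Cell cycle genes had ratios of 1.11 on both days.

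**Figure D3:**
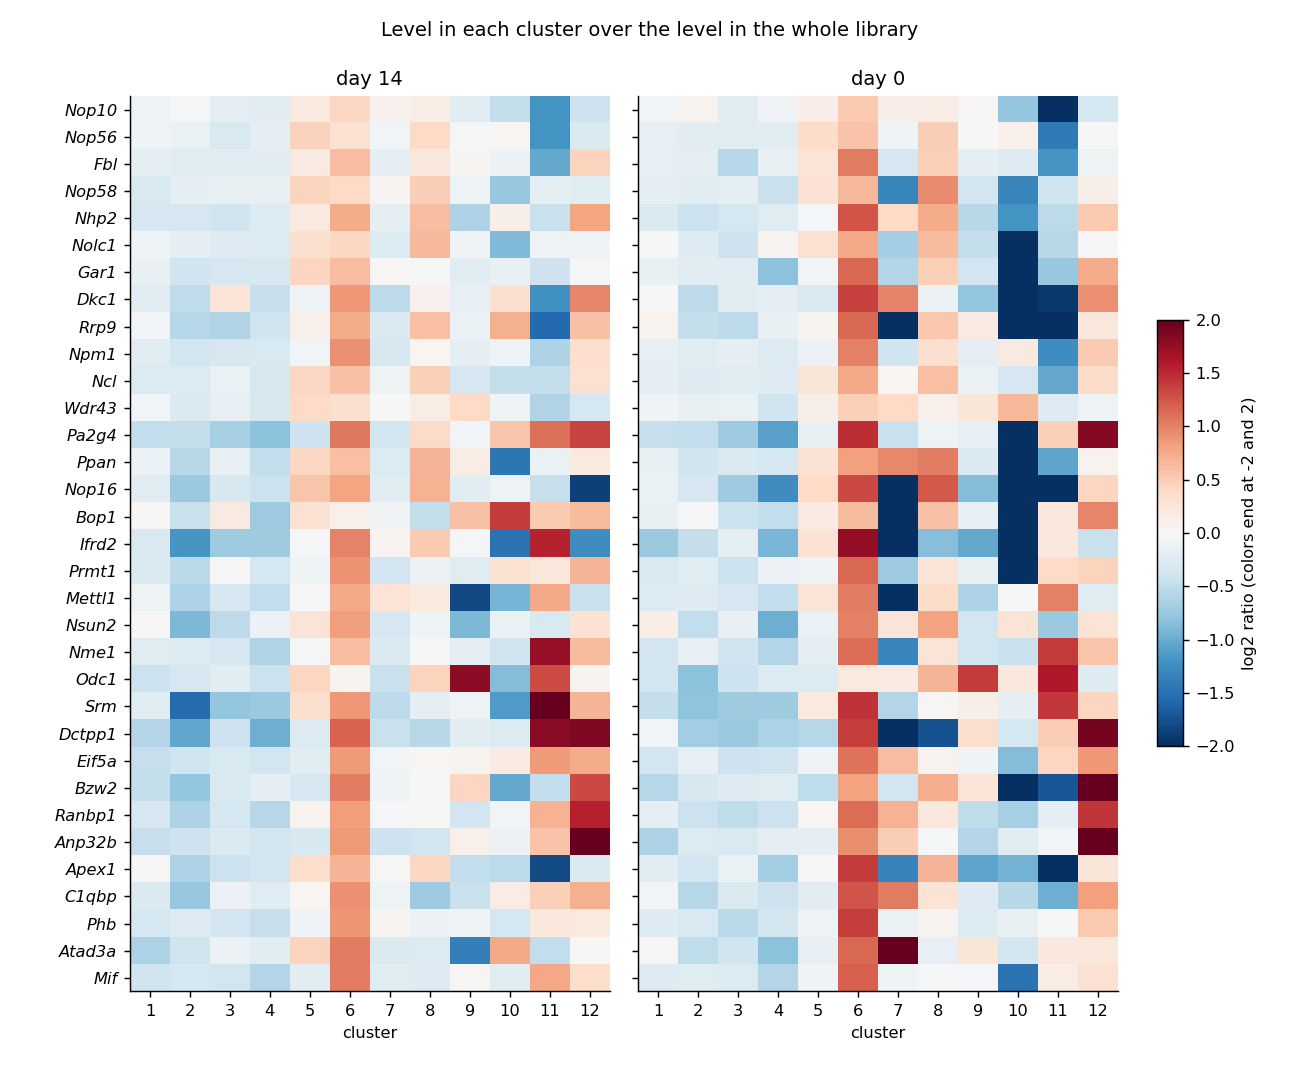
Level of each gene in each of the 12 clusters over its level in the whole library, as log2 ratio in color (red higher, blue lower), day 14 on the left and day 0 on the right; Polr1b and Cad are left out for their few UMIs. Cluster 6 is red for nearly every gene on both days, Odc1 is highest in clusters 9 and 11, and dark blue cells in clusters 7, 10 and 11 at day 0 can rest on 0 or a few UMIs.

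Cluster 8, led by Egr1, Nfkbid and Myc, held 190 day 14 cells and 120 day 0 cells and was the cluster richest in Myc. Myc had 388 CPM there at day 14 and 297 at day 0. The list had 6376 CPM in cluster 8 and 5638 in other cells at day 14, a ratio of 1.13 (1.09 to 1.17), and 7084 and 5409 in that order at day 0, a ratio of 1.31 (1.25 to 1.37). Of the list 5 of 30 genes passed 1.5-fold at day 14, with a background of 7.17%, and 8 of 26 at day 0, with 7.22%. Downward, only C1qbp passed at day 14, at 0.607-fold, with a background of 9.31%, and none at day 0, with 12.2%. The 3 that passed on both days were Nhp2, Nolc1 and Ppan, all nucleolar, while Mif, at 0.851-fold at day 14 and 0.997-fold at day 0, did not. Ncl had 1.41-fold (1.28 to 1.54) at day 14 and 1.54-fold (1.38 to 1.72) at day 0. The snoRNP genes summed to 1.24-fold in cluster 8 at day 14, above the mitochondrial genes at 0.733. At day 0 the snoRNP genes had 1.36 and the mitochondrial genes 1.13. Cluster 10, led by heat shock genes, had Myc at 298 CPM at day 14 and 223 at day 0 with the list at 5021 and 4004 in that order, no higher than in the library as a whole.

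**Figure D4:**
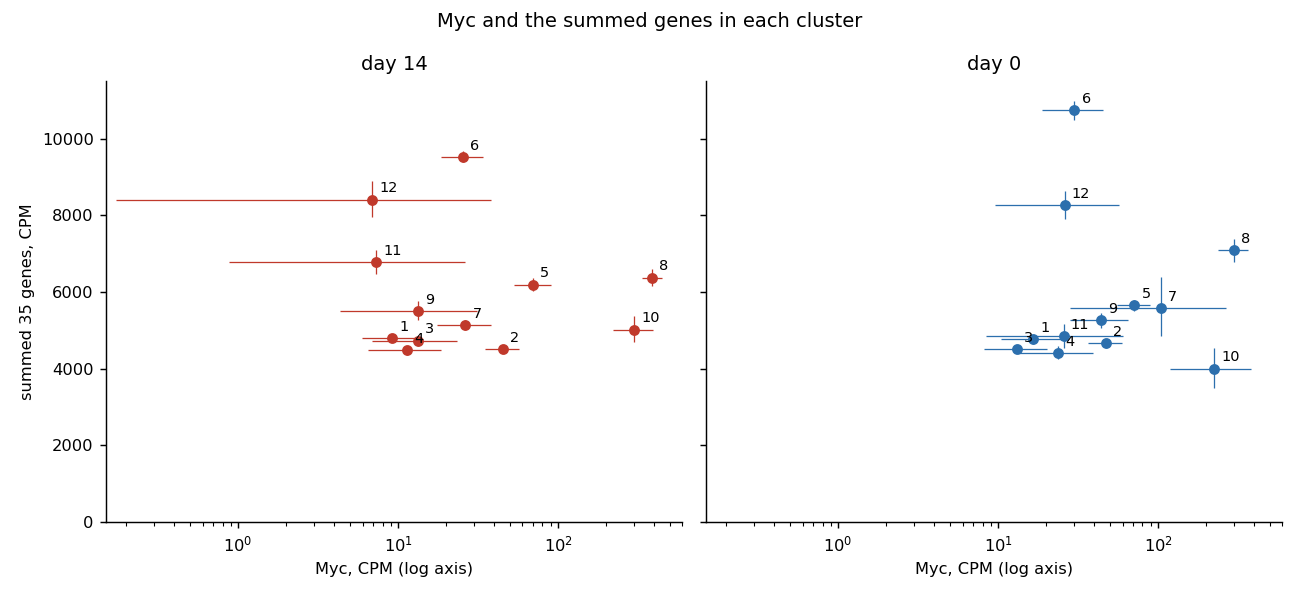
Summed level of the 35 genes (vertical, CPM) against the level of Myc (horizontal, CPM, log axis) in each cluster, day 14 on the left and day 0 on the right, with counting intervals and cluster numbers. Cluster 6 is highest for the list with Myc at 25.5 at day 14 and 30.04 at day 0, and cluster 8 is highest for Myc with the list at 6376 and 7084.

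A small cluster led by Pclaf, Rgs13 and Stmn1 mixed germinal center and cell cycle markers. Germinal centers are sites where activated B cells divide and are selected. The cluster held 17 day 14 cells and 34 day 0 cells, and 3 of its 10 leading genes were germinal center markers and 5 cell cycle markers, so it is called here by those genes. The list was higher in it, with 8408 CPM against 5669 in other cells at day 14, a ratio of 1.48 (1.40 to 1.57), and 8262 against 5475 at day 0, a ratio of 1.51 (1.44 to 1.58). Of the genes with enough UMIs 8 of 20 passed 1.5-fold at day 14, where 25% of all genes tested did, and 7 of 24 at day 0, where 25.3% did. Both shares were above the background, at day 0 by little.

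A few genes stood well above the sum. Anp32b had 5.62-fold (4.72 to 6.66) at day 14 and 4.72-fold at day 0, Ranbp1 had 3.07 and 2.83, and Pa2g4 had 2.69 and 3.92 in that order. Eif5a, Nme1 and C1qbp were the others past 1.5-fold on both days. With every cell thinned to 1000 UMIs, Anp32b had 5.25-fold at day 14 and 4.06-fold at day 0, from 15 and 24 UMIs. Eif5a also stayed past 1.5-fold on both days, from 14 and 25 UMIs in that order. Pa2g4 had 1.55-fold at day 14, from only 2 UMIs, and 4.67-fold at day 0, from 9. Ranbp1 then had 3.09-fold at day 14 and 1.14-fold at day 0, C1qbp had 2.36 and 0.9397, and Nme1 1.575 and 0.906, so these 3 no longer passed at day 0, where they rest on 7, 3 and 7 thinned UMIs in that order. Of the snoRNP genes with enough UMIs, only Nhp2 passed at day 14, at 1.74-fold, and only Gar1 at day 0, at 1.69-fold, while thinned cells gave Nhp2 0.459-fold at day 14, from 1 UMI. Nop10 had 0.739-fold at day 14 and 0.763-fold at day 0. Odc1 was at 1.08-fold at day 14 and 0.876-fold at day 0, and in thinned cells at 2.32-fold at day 14, from 5 UMIs, and 0.929-fold at day 0. Cell cycle genes were higher in the cluster too, with 10239 CPM against 1146 at day 14 and 7572 against 1299 at day 0. In the 3 day 14 cells and 12 day 0 cells of the cluster without 5 cell cycle genes, the list had ratios of 1.07 and 1.06. The part of the cell cycle in the level of the list was not tested. Depth differed too, with a median of 7810 UMIs in the cluster against 2131 in other cells at day 14 and 5710 against 2170 at day 0.

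In plasma-like cells, named from Jchain, Tnfrsf17, Edem1 and other plasma markers, genes of the list lay on both sides of their level in other cells. Plasma cells secrete antibody and are known for a large endoplasmic reticulum. There were 30 such cells at day 14 and 25 at day 0, with medians of 8251 and 7584 UMIs against 2131 and 2170 in other cells. The summed list had 6783 CPM in plasma-like cells and 5669 in other cells at day 14, a ratio of 1.20 (1.14 to 1.25). At day 0 it had 4842 and 5475 in that order, a ratio of 0.884 (0.828 to 0.943). The 2 libraries lay on opposite sides of 1 on this scale and with this class, but on the same side under each of 3 alternatives. Over all UMIs of the cell the ratios were 0.709 at day 14 and 0.406 at day 0, and with cells thinned to 1000 UMIs they were 0.959 and 0.901. With the class taken as the 67 day 14 cells and 70 day 0 cells that held 5 plasma genes, they were 1.46 and 1.35. Among thinned plasma-like cells 12 of 30 at day 14 and 9 of 25 at day 0 lay above the median of other cells.

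At day 14, 9 of 26 genes were higher by 1.5-fold and 7 lower, where 21.9% of all genes tested were higher and 41% lower. At day 0, 4 of 23 were higher and 9 lower, where 19.4% were higher and 44.6% lower. The day 0 shares were near those of all genes. At day 14 the share higher was above that of all genes, and the share lower was below it. The median log2 ratio of the members tested was -0.12 at day 14 and -0.40 at day 0, and that of all genes tested -0.30 and -0.43 in that order. On both days the genes past 1.5-fold upward were Nme1, Odc1, Mettl1 and Pa2g4. Nme1 had 3.60-fold at day 14 and 2.80-fold at day 0, and it stayed above 1 over all UMIs of the cell, at 2.13 and 1.29. Odc1 had 2.56-fold at day 14 and 3.17-fold at day 0, and over all UMIs 1.52 and 1.45. With the rule of 5 plasma genes Odc1 had 2.64 at day 14 and 1.99 at day 0, and with thinned cells 2.10 and 2.105. Mettl1 had 1.72-fold at day 14 and 2.05-fold at day 0, but over all UMIs 1.02 and 0.941, and Pa2g4 fell to 0.698 at day 0 on that scale. Srm had 5.84-fold (4.51 to 7.48) at day 14 from 73 UMIs in 24 of 30 cells, and it had too few expected UMIs for the comparison at day 0. So Odc1 and Srm, on opposite sides between days, were both high in plasma-like cells of day 14.

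On both days the genes past 1.5-fold downward were Apex1, Fbl, Nop10, Nop56 and Npm1, mostly of the snoRNP core. The scale of all UMIs lowers every ratio of a day by the same factor, so it could not bring them above 1. In thinned cells all 5 were below 1 on both days, most from few UMIs. Apex1 then had 0 UMIs on both days and Fbl 2 on both days. Nop56 had 4 at day 14 and 1 at day 0, and Nop10 5 and 3 in that order. Nop10 had 0.429-fold at day 14 and 0.221-fold at day 0. Nop56 had 0.430-fold at day 14 and 0.368-fold at day 0, Fbl had 0.485 and 0.432, and Npm1 had 0.651 and 0.423. Apex1 was the lowest, with 6 UMIs in 30 cells at day 14, a ratio of 0.285 (0.104 to 0.623), and 1 UMI in 25 cells at day 0, a ratio of 0.0768 (0.00194 to 0.430). Ribosomal protein genes were lower as well, at 0.727-fold at day 14 and 0.467-fold at day 0. Of the other ribosome biogenesis genes 19 of 59 were lower and 2 higher at day 14, and 17 of 36 lower and 0 higher at day 0. Of all genes tested 41% were lower at day 14 and 44.6% at day 0, and 21.9% and 19.4% higher in that order. The share of biogenesis genes that were lower was thus below that of all genes at day 14 and near it at day 0.

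**Figure D5:**
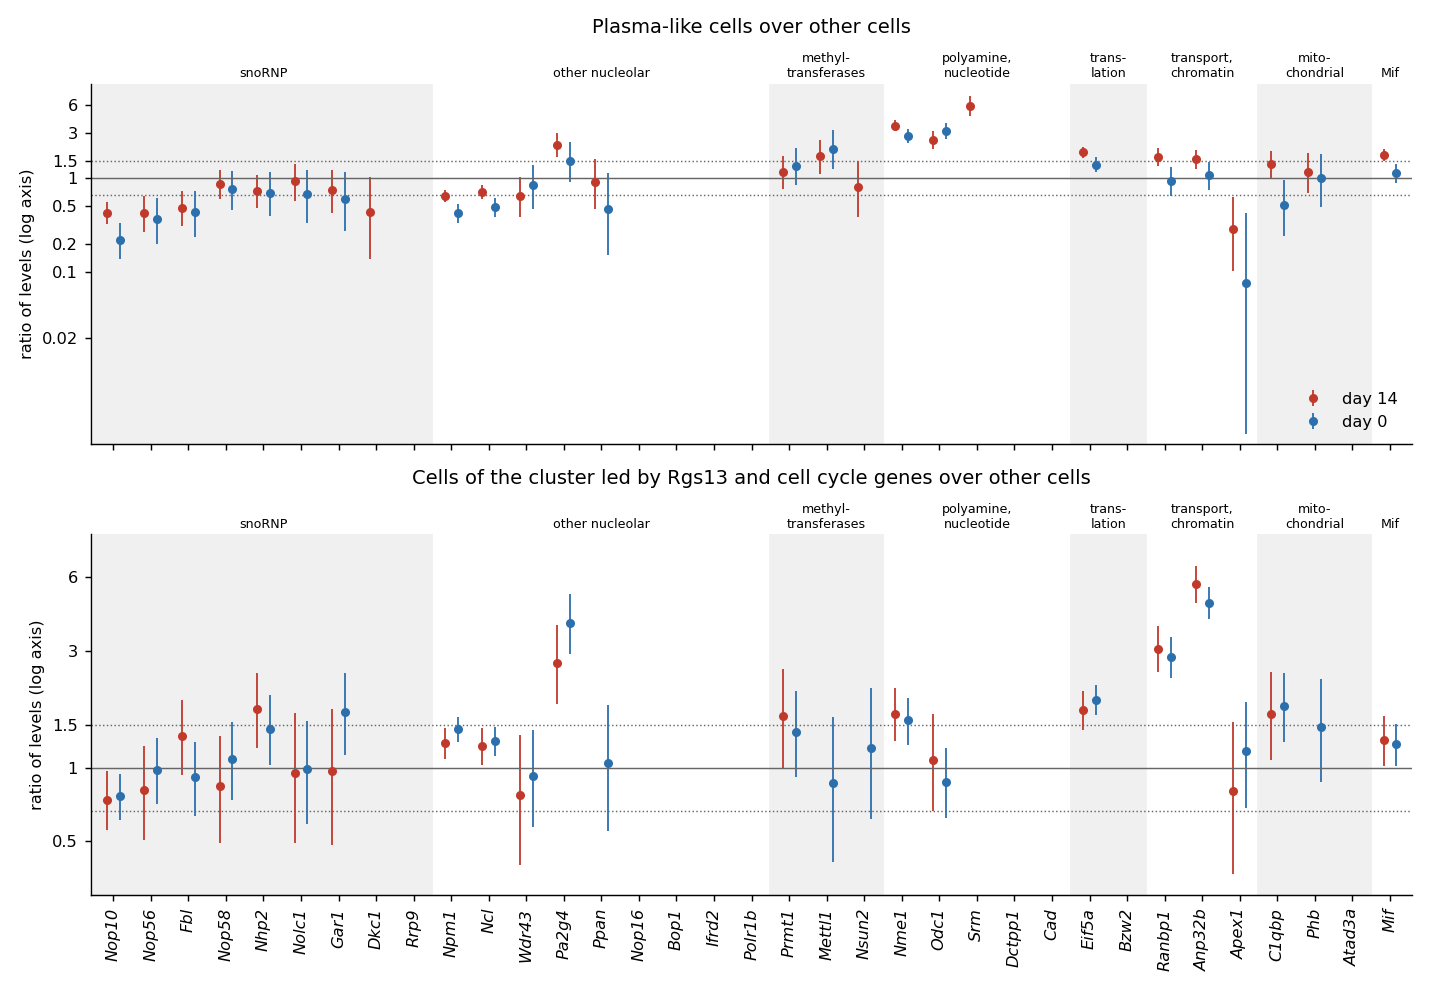
Ratio of the level of each gene in plasma-like cells (upper panel) and in the cluster led by Rgs13 and cell cycle genes (lower panel) over other cells (log axes), day 14 (red, left) and day 0 (blue, right), with counting intervals; dotted lines mark 1.5-fold and genes with too few expected UMIs are not drawn. In plasma-like cells the snoRNP genes drawn lie below 1 while Nme1 and Odc1 lie above 1.5, and in the lower panel Anp32b, at 5.62 at day 14 and 4.72 at day 0, is the highest.

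Cells were also split by heavy chain isotype. A cell took the isotype that held over 50% of its heavy chain UMIs, with at least 5 such UMIs, after leaving out the plasma-like cells and the cluster led by Rgs13 and cell cycle genes. The 24 IgA cells of day 14 had 4861 CPM against 5580 in 1951 IgM or IgD cells, a ratio of 0.871 (0.788 to 0.961). At day 0, 37 IgA cells had 5317 against 5615 in 1581 IgM or IgD cells, a ratio of 0.947 (0.877 to 1.02), and of 1.21 when at least 10 heavy chain UMIs were asked for. One gene passed 1.5-fold upward, 1 of 13 tested at day 14, with a background of 9.26%, and 1 of 18 at day 0, with 7.88%. It was Odc1 on both days, with 278 CPM in IgA cells against 122 at day 14, a ratio of 2.28 (1.43 to 3.45), and 530 against 183 at day 0, a ratio of 2.90 (2.24 to 3.71). An Odc1 UMI was seen in 12 of 24 IgA cells at day 14 and in 25 of 37 at day 0. Downward, 2 of 13 genes passed at day 14, Nhp2 and Nop10, with a background of 13.5%, and 3 of 18 at day 0, Nhp2, Fbl and Ranbp1, with 13%. Nhp2 had 0.480-fold at day 14, from 5 UMIs, and 0.664-fold at day 0, from 11.

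IgG cells were rarer, 12 at day 14 and 15 at day 0, with list levels of 5135 and 5500 CPM and ratios of 0.920 (0.816 to 1.03) and 0.980 (0.865 to 1.11) over IgM or IgD cells. The day 14 ratio was 0.674 with at least 10 heavy chain UMIs and 1.04 with over 80% of the heavy chain UMIs. At day 14, 1 of 8 genes passed upward, Anp32b at 1.69-fold (0.982 to 2.72), with a background of 7.47%. At day 0 none of 6 did, with 6.43%. Downward, 2 of 8 passed at day 14, Ncl and Nme1, with 11.6%, and 1 of 6 at day 0, Nme1, with 10.5%. Among IgM or IgD cells, 371 day 14 cells with no Ighd UMI were set against 1085 with at least 2, and their list ratio was 0.977 (0.948 to 1.006). At day 0, 358 cells were set against 757, and the ratio was 0.875 (0.846 to 0.905). Of 33 genes 1 passed upward at day 14, with a background of 4.09%, and 0 at day 0, with 4.74%. The 1 was again Odc1, at 1.58-fold (1.31 to 1.91), and at day 0 it had 1.44-fold (1.21 to 1.71). Downward, 1 of 33 passed at day 14, with 5.05%, and 4 at day 0, with 5.95%. Dkc1 was lower on both days, at 0.593-fold at day 14 and 0.639-fold at day 0, and the others at day 0 were Ifrd2, Dctpp1 and Bop1. In these cells Odc1 thus had higher values without IgD, while 21 of the 33 genes at day 14 and 26 at day 0 had ratios below 1. No isotype was given to 2658 day 14 cells and 1598 day 0 cells, which had list levels of 5775 and 5309 CPM.

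Besides plasma-like and IgA cells, Odc1 was high in cluster 9, led by S100a6, Rgs1, Cd80 and Nt5e, with 482 CPM at day 14 and 550 at day 0, where the library as a whole had 139 and 208. The summed list in that cluster had 5511 at day 14 and 5257 at day 0, close to the 5730 and 5539 of the whole libraries. Most IgA cells sat in cluster 9, 21 of 24 at day 14 and 27 of 37 at day 0. The cells of cluster 9 that were not called IgA had 528 CPM of Odc1 (449 to 617) at day 14 and 547 (482 to 618) at day 0, against 296 (185 to 448) at day 14 and 566 (431 to 730) at day 0 in the IgA cells of the cluster. So the high Odc1 was not limited to IgA cells. Outside cluster 9 the 10 IgA cells of day 0 had 396 CPM (198 to 709), and the 3 of day 14 gave 1 Odc1 UMI. IgM or IgD cells outside cluster 9 had 117 at day 14 and 174 at day 0. Immunoglobulin genes took no part in the clustering or in the levels given here.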

How the data were processed

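Per the file headers, Cell Ranger 3.0.1 wrote the deposited matrices, whose values are raw UMI counts of each gene in each barcode; the build was mm10 per the submitters' processing notes, which also name Seurat 3.0. The authors' second table per library gives each cell on a natural log scale: 1 plus the UMIs of a gene, scaled to 10000 per cell, then logged. Recomputed from the counts, 76934724 day 14 and 53946130 day 0 values matched within a relative tolerance of 0.001. These tables define the kept cells: 88 of the 4780 barcodes of day 14 and 86 of the 3376 of day 0 are absent from them, and the sources used here do not state the authors' filter. Doublets were not called; cells of high UMI number were left out as an alternative.

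The members and all lists were chosen with earlier results of these data known. Every level was computed from the counts, with Python 3.11.15, numpy 2.4.6 and scipy 1.17.1. Genes entered the day comparison with at least 50 UMIs, thinned comparisons with at least 50 thinned UMIs in the library, and class comparisons where at least 10 UMIs were expected in each group. Ratios carry exact conditional intervals, levels exact Poisson intervals and shares exact binomial (Clopper-Pearson) intervals. Thinned ranks broke ties at random with a fixed seed. Clusters came from a shared graph of both libraries by the Leiden method (leidenalg 0.10.2), without immunoglobulin genes, members, other ribosome biogenesis genes and Myc network genes. With 1 library per group no test was made. The steps were tested on simulated data with known changes.

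Named genes are every member, and of other genes the 10 with at least 100 cells holding a UMI in each library whose cells had the highest list level, and of each list the 4 with the largest difference and the 1 with most UMIs. Clusters 6, 8, 9 and 10 were named in the text after their values were seen. Alternatives changed the scale, the depth, the cells kept and the class rules.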

Additional observations from a re-analysis of the deposited data

Results flagged for a closer look

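The summed list in plasma-like cells lay on opposite sides of 1 in the 2 libraries, with intervals that did not reach 1: the ratio over other cells was 1.20 at day 14 and 0.884 at day 0. The difference between the libraries was not tested. C1qbp, a protein of the mitochondrial matrix, did the same, at 1.41-fold at day 14, from 40 UMIs in 17 of 30 plasma-like cells, and 0.514-fold at day 0, from 10 UMIs in 7 of 25 cells. Ribosomal protein genes in plasma-like cells were below other cells in both libraries, at 0.727-fold at day 14 and 0.467-fold at day 0. Of the 4 settings run, the summed list lay on opposite sides in this one only. Over all UMIs of the cell the summed list was below 1 on both days, at 0.709 at day 14 and 0.406 at day 0. With thinned cells it was below 1 on both days as well, at 0.959 at day 14 and 0.901 at day 0, and with cells that held 5 plasma genes above 1, at 1.46 and 1.35. C1qbp over all UMIs was 0.839 at day 14 and 0.236 at day 0, and with thinned cells 1.67 and 0.426.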

How the results depend on the processing

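Of 102 values recomputed under other settings, 35 moved and 67 did not; the causes were not tested. For the summed list by day (1.03), median-of-ratios factors gave 1.10 and leaving out cluster 6, chosen after seeing the data, 1.009. The variance over mean depends on depth by construction: thinned to 500 UMIs it was 1.99 at day 14 and 1.78 at day 0, thinned to 2000 UMIs 5.05 and 4.37, and without the 5 most abundant members 1.92 and 2.00. The counts of members past 1.5-fold in the top cells stayed between 28 and 33 at day 14 and between 26 and 32 at day 0. The number of members with enough UMIs may differ between these settings. For cells with Myc at day 14, thinning to 500 UMIs gave 1.07 and at least 2 Myc UMIs gave 0.968. Leaving out cells with at least 2 of 14 cell cycle genes, 33.7% of the day 14 cells, gave 1.29. The count of members was then 8, and it was 2 without cells of high UMI number. At day 0 the ratio was 1.10 without the named clusters and 1.92 with at least 2 Myc UMIs, and the count was 9 at 500 UMIs. Where cells were left out of a thinned comparison, the remaining cells were thinned anew, so the draw of UMIs changed too. For the cluster led by Rgs13 and cell cycle genes at day 14, cells with 3 germinal center genes gave 1.38, cells without 5 cell cycle genes 1.07 and thinning 1.38; at day 0 the germinal center rule gave 1.40 and the cell cycle rule 1.06. For plasma-like cells, cells with 5 plasma genes gave 1.46 at day 14 and 1.35 at day 0, all UMIs of the cell 0.709 and 0.406, and thinning 0.959 at day 14. IgA cells with at least 10 heavy chain UMIs gave 1.21 at day 0. IgG cells at day 14 gave 0.674 with at least 10 heavy chain UMIs and 1.04 with over 80% of heavy chain UMIs. Cluster 6 at day 14 gave 1.99 without cells of high UMI number. No paired analysis was possible because each group is 1 library. Depth limits single genes: in plasma-like, IgA and IgG cells most members rest on under 100 UMIs, and between 12 and 37 cells.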

Other observations

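The barcodes outside the authors' cell filter, 88 at day 14 and 86 at day 0, held the list at 4589 and 4511 CPM, which was 0.801 (0.762 to 0.841) and 0.814 (0.775 to 0.856) times the level of kept cells.

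Among the 10 genes whose cells were richest in the list, Ppp1r14b, an inhibitor of a phosphatase, Timm10, Hdgf, Tma16 and Ankrd33b were in no list, and Timm8a1 was in the growth list. Ppp1r14b cells had 1.53 times the list level of other cells at day 14 and 1.37 times at day 0, and Timm10 cells 1.32 and 1.5 times. Cells of Hdgf, a growth factor of the nucleus, had 1.34 and 1.31 times in the same order.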
